A study of Mus musculus with 8 samples.

Results

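Genes that pattern the Müllerian duct, the embryonic tube from which oviduct, uterus and upper vagina arise, were followed in mouse ovarian tumours, 10 in all. They were the transcription factor genes Pax8, Pax2, Wt1, Emx2, Lhx9, Hoxa9, Hoxa10 and Hoxa11 and the secreted signal genes Wnt4 and Wnt7a. The 10 genes were chosen by name, and every array spot that carries one of these names was read, which gave 15 probes. A probe was kept where it was well above background, a flag set by the scanner software, on at least 4 of the 8 arrays. Of the 10 genes, 7 had such a probe and were tested among 19778 genes. Lhx9, Hoxa10 and Hoxa11 did not, and are described by their values only.

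The tumours came from female C57BL/6JTgMISIIR-TAg mice, which carry SV40 T antigen under the MISIIR promoter, that of the anti-Müllerian hormone receptor gene Amhr2. All groups share the transgene and the strain, and the transgene is active in cells that use that promoter. The AZD1480 group was 4 mice given the JAK1 and JAK2 kinase inhibitor AZD1480 at 30 mg/kg, and the vehicle group was 4 mice given 0.5% hypermellose with 0.1% Tween 80 alone. Mice carried tumours of about 500 mm3 and tumour tissue was taken 6 h after dosing. The ages of the mice are not given in the sources used here. Each array, of 1 colour, held 1 tumour, with replicates 1 and 2 of both groups on 1 slide and replicates 3 and 4 on the other. Values below are scaled log2 signals, that is the log2 processed intensity of a probe minus the 75th percentile of its array, so that 0 is the brightness of the upper quartile and 1 unit is a 2-fold step. Levels of different probes are not compared with each other.

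The Müllerian duct forms by folding of the coelomic epithelium, the lining of the body cavity that also gives rise to the surface and supporting cells of the gonad. Pax2, Pax8 and Emx2 act in the duct epithelium and in the neighbouring nephric duct, Wnt4 is needed for the duct to invaginate, and Wnt7a from the epithelium maintains the mesenchyme. Wt1, Emx2 and Lhx9 are also needed to form the gonadal ridge. Hoxa9, Hoxa10 and Hoxa11 are expressed in successive stretches of the tract, in oviduct and uterus. In the adult tract Pax8 marks secretory cells of the oviduct, and Wnt4 is also expressed in granulosa cells of the ovary.

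One array stood apart. AZD1480 replicate 1 had a median correlation of 0.887 with the other arrays across genes, while the other 7 had medians of 0.958 to 0.972. Of the 19778 genes, 10.4% lay at least 1 log2 unit below all other arrays on AZD1480 replicate 1 and 4.34% at least 1 unit above, whereas on the other 7 arrays these shares were 0.126% to 0.905% and 0.147% to 3.77%. The share of spots well above background was 74.0% on that array and 66.9% to 76.4% on the others. The array was singled out with these values known, so its comparison with the other 7 is a description with no test, and the treatment comparison is given with and without it.

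Of the 15 probes, 4 are shown, because the Lhx9 and Wnt4 probes carry the tumour-to-tumour pattern described below and the Pax2 probes differ in whether they detect the gene. They are printed 5′ to 3′ in lower case as the array files give them, each 60 bases, with mm9 coordinates, and each has at least 1 reading frame free of stop codons. The Lhx9 probe A_55_P2117853 (chr1:140729280-140729339, minus strand) lies in the homeodomain, the DNA-binding part of the factor. The Wnt4 probe A_51_P130475 (chr4:136851690-136852258, plus strand) has a span longer than its 60 bases, so it crosses an exon junction. The first Pax2 probe, A_55_P2148518 (chr19:44835420-44835479, plus strand), lies in the paired box, and the other, A_55_P2075127 (chr19:44909895-44909954, plus strand), lies farther 3′ in the gene.
Lhx9 homeodomain probe: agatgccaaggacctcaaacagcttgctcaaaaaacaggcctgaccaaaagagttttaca
Wnt4 junction probe: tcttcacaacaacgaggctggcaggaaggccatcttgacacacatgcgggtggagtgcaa
Pax2 paired box probe: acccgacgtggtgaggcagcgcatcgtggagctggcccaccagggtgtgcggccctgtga
Pax2 downstream probe: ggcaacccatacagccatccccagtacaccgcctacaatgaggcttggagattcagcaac
No array had the Pax2 paired box probe well above background, while the downstream probe was so on 7 of 8. The Lhx9 homeodomain probe was well above background on 3 arrays and the Wnt4 probe on all 8.

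Pax8, the paired box factor of Müllerian epithelium, was detected in every tumour and was lowest in AZD1480 replicate 1. Its probe lies at chr2:24276147-24276206 in mm9. It was at 0.63, 2.06, 1.69 and 2.44 in AZD1480 replicates 1, 2, 3 and 4, against 1.48, 2.06, 2.13 and 1.77 in vehicle replicates 1, 2, 3 and 4. AZD1480 replicate 1 was below all vehicle tumours and AZD1480 replicate 4 above all of them, so the AZD1480 range enclosed the vehicle range. AZD1480 replicate 1 was 2.49-fold below the mean of the other 7 arrays (-1.32 on the log2 scale) and 0.85 units below the lowest of them. The mean was 1.70 ± 0.78 in AZD1480 tumours and 1.86 ± 0.30 in vehicle tumours (SD, n = 4 each), or -0.16 ± 0.38 on the log2 scale (± is the moderated SE of limma here and below, limma adjusted p = 0.984). Without AZD1480 replicate 1 the sign turned, with 2.06 ± 0.38 in 3 AZD1480 tumours and a difference of 0.20 ± 0.25 from vehicle (limma adjusted p = 0.996). In bulk tissue, fewer cells of a type and less RNA per cell cannot be told apart.

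Emx2, a homeobox factor of the duct and gonadal ridge, was likewise lowest in AZD1480 replicate 1. Its values were 0.24, 1.12, 1.44 and 0.85 in AZD1480 replicates 1 to 4 and 1.05, 1.34, 1.21 and 1.22 in vehicle replicates 1 to 4. The vehicle tumours were closely spaced and lay inside the AZD1480 range. AZD1480 replicate 1 was 1.91-fold below the mean of the other 7 arrays, a log2 difference of -0.93. With all arrays the difference between treatments was -0.29 ± 0.26 and without AZD1480 replicate 1 it was -0.07 ± 0.18 (limma adjusted p = 0.974 and 0.996). Emx2os, the transcript antisense to Emx2, was at -3.45 in AZD1480 replicate 1, inside the range of the other 7 arrays (-3.67 to -2.05).

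Wt1, the zinc finger factor of coelomic epithelium and gonad, varied least among the 10 genes, over 0.76 log2 units across the 8 tumours. Its values were 5.20, 4.44, 4.83 and 4.58 in AZD1480 replicates 1 to 4 and 4.96, 4.63, 5.15 and 4.79 in vehicle replicates 1 to 4. AZD1480 replicate 1 was the highest array, by 0.06 units over the next. Treatment differences were -0.12 ± 0.21 with all arrays and -0.26 ± 0.18 without AZD1480 replicate 1 (limma adjusted p = 0.981 and 0.996).

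Pax2, the paired box relative of Pax8, was dim. Its brightest probe was at -5.40, -5.83, -7.24 and -5.08 in AZD1480 replicates 1 to 4 and at -5.08, -5.50, -6.27 and -6.42 in vehicle replicates 1 to 4, and was well above background in 3 of 4 AZD1480 tumours and 4 of 4 vehicle tumours. The groups overlapped and AZD1480 replicate 1 lay inside the range of the others. The difference was -0.07 ± 0.51 by that probe (limma adjusted p = 0.995), and the second kept probe had means of -6.54 in AZD1480 and -7.08 in vehicle tumours, a difference of 0.55. The 2 kept probes thus differed in sign.

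**Figure D1:**
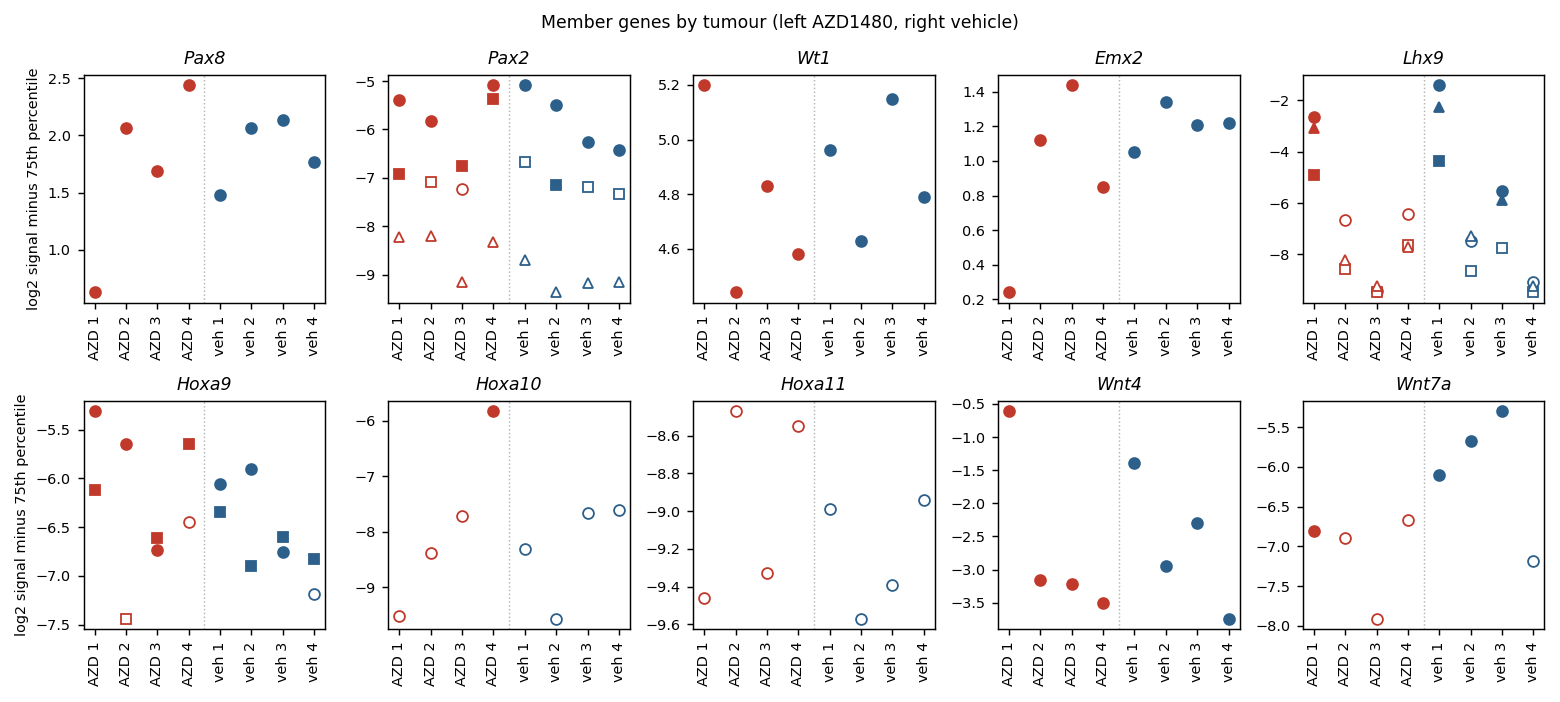
Scaled log2 signal (vertical axis, log2 units relative to the 75th percentile of the array) of each of the 10 genes in each tumour, AZD1480 replicates left of the dotted line in red and vehicle replicates right of it in blue. Each symbol shape is 1 probe, filled where the probe was well above background on that array and open where it was not. Pax8 and Emx2 are lowest and Wnt4 is highest in AZD1480 replicate 1, and Lhx9 is filled in 3 tumours only.

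Lhx9, the LIM homeobox factor of the early gonad, was above background in some tumours of both groups and not in others. Its brightest probe was at -2.64, -6.66, -9.43 and -6.41 in AZD1480 replicates 1 to 4 and at -1.40, -7.49, -5.53 and -9.06 in vehicle replicates 1 to 4. It was well above background in AZD1480 replicate 1 and in vehicle replicates 1 and 3, and in none of the other 5. The homeodomain probe had its well above background arrays at -5.90 to -2.26 and its dim arrays at -9.23 to -7.29, a gap of 1.39 units. The third probe was well above background in AZD1480 replicate 1 and vehicle replicate 1 alone, at -4.91 and -4.36, with the other 6 arrays at or below -7.63. The 3 probes lie 1677 to 7312 bases apart and do not overlap, yet all 3 put vehicle replicate 1 first, AZD1480 replicate 1 second and the vehicle replicate 4 or AZD1480 replicate 3 array last. Without AZD1480 replicate 1, none of the 3 AZD1480 arrays had Lhx9 well above background, and it was at least 1.76-fold lower there than in vehicle tumours, where 2 of 4 arrays measured it. That bound sets the dim AZD1480 arrays no lower than the dimmest probe that each array still called well above background, which gave -6.69, against the vehicle mean of -5.87. The measured means were -7.50 and -5.87. The homeodomain probe gave at least 1.44-fold and the third probe no bound, and without vehicle replicate 1, where Lhx9 was highest, the vehicle mean was -7.36 and no probe gave a bound. Lhx9 was not tested, as its probes did not pass the filter.

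Wnt4, a secreted signal of duct and ovary, followed the same tumours. It was at -0.61, -3.15, -3.22 and -3.51 in AZD1480 replicates 1 to 4 and at -1.39, -2.94, -2.29 and -3.74 in vehicle replicates 1 to 4. The 3 tumours with Lhx9 signal were the 3 with the highest Wnt4. AZD1480 replicate 1 was 4.84-fold above the mean of the other 7 arrays (a log2 difference of 2.28) and 0.77 units above the highest of them, while AZD1480 replicates 2, 3 and 4 had an SD of 0.19. The treatment difference was -0.03 ± 0.74 with all arrays and -0.70 ± 0.52 without AZD1480 replicate 1 (limma adjusted p = 0.995 and 0.996).

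Some genes of gonadal supporting cells were high in those tumours too, and others were not. Nr5a1, the steroidogenic factor of gonad and adrenal, was at 3.70 in AZD1480 replicate 1 and at 1.36 and -0.14 in vehicle replicates 1 and 3, with the other 5 arrays between -3.65 and -2.12. Inha, the inhibin alpha subunit of granulosa cells, was at 4.44, 2.00 and 1.56 in the same order, with the others between -4.18 and -2.78. Amhr2, the receptor whose promoter drives the transgene, was at 6.83, 5.39 and 1.43, with the others at or below 0.62. Over the 14 tested genes of the granulosa and luteal marker list, the mean was 0.66 in AZD1480 replicate 1 and -3.10 to -2.33 in AZD1480 replicates 2 to 4, against -0.58 and 0.20 in vehicle replicates 1 and 3 and -2.97 and -3.01 in vehicle replicates 2 and 4. Other genes of that list did not follow: Foxl2, a granulosa cell factor, was at 3.27 to 3.65 in all 8 tumours. Fst, which encodes the activin-binding protein follistatin, was at -1.31 in AZD1480 replicate 1 and 0.89 to 2.85 elsewhere. The gap junction gene Gja1 was at -1.58 in AZD1480 replicate 1 and -0.31 in vehicle replicate 3, with the others at 0.04 to 0.92. The list's Fshr, Lhcgr, Cyp19a1, Cyp11a1, Amh and Ptgfr did not pass the detection filter of 4 arrays. A gene detected in those tumours alone would fail it too, as Lhx9 did, so this does not show whether they followed. By treatment 0 of the 14 passed in either comparison, with medians of -0.10 with all arrays and -1.30 without AZD1480 replicate 1. The part of such cells in the Lhx9 and Wnt4 signals was not tested.

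**Figure D2:**
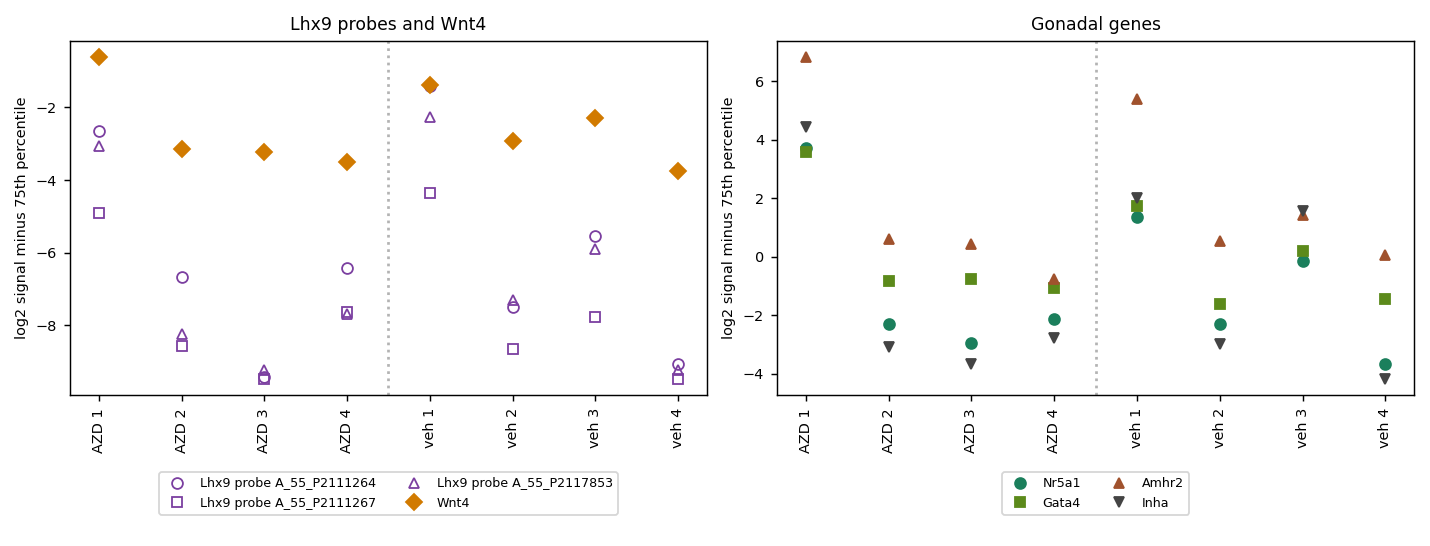
Scaled log2 signal (vertical axis, log2 units relative to the 75th percentile of the array) of the 3 Lhx9 probes and Wnt4 (left panel) and of 4 gonadal genes (right panel) in each tumour, AZD1480 replicates left of the dotted line and vehicle replicates right of it. AZD1480 replicate 1, vehicle replicate 1 and vehicle replicate 3 hold the highest values of Wnt4, Nr5a1, Gata4, Amhr2 and Inha, and heights of different genes are not comparable.

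Promoters of Lhx9 and Wnt4 are shown because these genes were high in the same tumours, and 1 Pax2 promoter because it alone among the members' promoters held a match to a searched motif. Each is the 250 bases before a RefSeq gene start in GRCm38.p6, on the gene's strand. The 3 motifs searched, on both strands, were the STAT motif TTCNNNGAA, the NR5A1 half-site core AAGGTCA and the homeodomain core TAATTA. Capitals mark the STAT match.
Lhx9 promoter, chr1:138842445-138842694, minus strand: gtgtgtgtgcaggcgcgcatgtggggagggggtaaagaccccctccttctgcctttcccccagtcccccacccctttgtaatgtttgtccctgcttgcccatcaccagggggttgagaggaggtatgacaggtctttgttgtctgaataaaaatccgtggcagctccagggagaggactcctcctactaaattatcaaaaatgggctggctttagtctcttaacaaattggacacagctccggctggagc
Wnt4 promoter, chr4:137277385-137277634, plus strand: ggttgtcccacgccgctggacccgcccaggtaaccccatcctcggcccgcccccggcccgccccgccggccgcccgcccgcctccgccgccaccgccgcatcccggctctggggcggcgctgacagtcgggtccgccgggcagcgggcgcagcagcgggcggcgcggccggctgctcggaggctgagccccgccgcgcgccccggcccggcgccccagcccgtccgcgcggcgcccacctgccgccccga
Pax2 promoter, chr19:44746351-44746600, plus strand: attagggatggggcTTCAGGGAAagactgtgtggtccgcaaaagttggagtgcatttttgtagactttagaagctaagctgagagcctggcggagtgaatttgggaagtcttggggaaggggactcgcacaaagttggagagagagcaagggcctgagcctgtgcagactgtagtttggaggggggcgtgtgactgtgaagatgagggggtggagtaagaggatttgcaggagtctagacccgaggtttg
Promoters were found for 9 of the 10 genes, 12 in all, and 1 of the 12 held the STAT motif, against 7.02% of 32851 mouse promoters of the same length. The NR5A1 core was in 0 of the 12 (4.08% of all) and the homeodomain core in 0 (4.84% of all). The Wnt4 window had a GC content of 85.2% and the Lhx9 window 53.6%, and the median of all promoters was 52.4%. A match, or none, describes these letters in these windows only.

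The 3 HoxA genes among the members, which assign position along the tract, were near or below background. Hoxa9 was the only one of the 3 to be tested, at -5.31, -5.65, -6.73 and -6.45 in AZD1480 replicates 1 to 4 and -6.06, -5.90, -6.76 and -7.19 in vehicle replicates 1 to 4. AZD1480 replicate 1 was the highest, but the second kept Hoxa9 probe, 1371 bases away, was highest in AZD1480 replicate 4 (-5.65) and had AZD1480 replicate 1 at -6.12, so the probes did not share an order. The treatment difference was 0.44 ± 0.41 with all arrays and 0.20 ± 0.40 without AZD1480 replicate 1 (limma adjusted p = 0.974 and 0.996). Hoxa10 was well above background on 1 array, AZD1480 replicate 4, at -5.83, with the other 7 at -9.57 to -7.61. Hoxa11, printed in 10 spots, was below that limit on all 8 arrays, at -9.57 to -8.47. Of the 12 genes of the HoxA cluster and its neighbour Evx1, only Hoxa3, Hoxa7 and Hoxa9 passed the filter. Hoxa7 was well above background on all 8 arrays, at -5.77 in AZD1480 replicate 1 and at -5.55 to -2.07 on the other arrays. Hoxa11os, the transcript antisense to Hoxa11, was well above background on 7 arrays, with a log2 difference of 0.49 between treatments (limma adjusted p = 0.974). Of the 3 tested antisense transcripts of members, Emx2os, Hoxa11os and Wt1os, 0 passed, with a median difference of 0.35, and of the 3 tested HoxA genes 0 passed, with a median of -0.16.

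Wnt7a, the epithelial signal, lay near background and had a negative treatment difference whose size depended on the background correction. It was at -6.81, -6.89, -7.91 and -6.67 in AZD1480 replicates 1 to 4 and at -6.10, -5.68, -5.30 and -7.18 in vehicle replicates 1 to 4. All AZD1480 tumours were below vehicle replicates 1, 2 and 3 and all but AZD1480 replicate 3 above vehicle replicate 4, so the groups overlapped. The probe was well above background in 1 of 4 AZD1480 and 3 of 4 vehicle tumours. On the log2 scale AZD1480 minus vehicle was -1.01 ± 0.45 (a 2.01-fold lower mean, unadjusted p = 0.0563, limma adjusted p = 0.974), and without AZD1480 replicate 1 it was -1.09 ± 0.50 (limma adjusted p = 0.996). In that second comparison no AZD1480 array was well above background, and Wnt7a was at least 1.54-fold lower by the same kind of bound (1.29-fold without vehicle replicate 3). With normexp background correction the differences were -0.12 and -0.03, smaller in size than those of Hoxa9 (0.32 and 0.31) and Emx2 (-0.29 and -0.08), and in the authors' deposited value table -0.53 and -0.59.

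Across the 7 tested genes none passed in either treatment comparison. By limma with Benjamini-Hochberg adjustment over all genes, 0 of 7 members were called with all arrays, where 0% of the 19778 genes were called, and 0 of 7 without AZD1480 replicate 1, where 0% were called. With all arrays, 0 of 7 members had an unadjusted p under 0.05, against 3.46% of all genes (1.72% higher and 1.74% lower in AZD1480). Without AZD1480 replicate 1 it was again 0 of 7, against 4.34% of all genes (2.2% higher and 2.14% lower). A log2 difference of at least 1 in size was reached by 1 of 7, Wnt7a, in both comparisons, against 7.12% and 4.43% of all genes. The groups did not overlap in 0 of 7 members in either comparison, against 2.62% and 4.77% of all genes. The members' median difference was -0.12 with all arrays, with 6 of 7 lower in AZD1480, and -0.23 without AZD1480 replicate 1, with 5 of 7 lower, while the median of all genes was 0.04 and 0.02. With 4 or fewer arrays a group, differences of the size of the SEs above were not detectable.

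**Figure D3:**
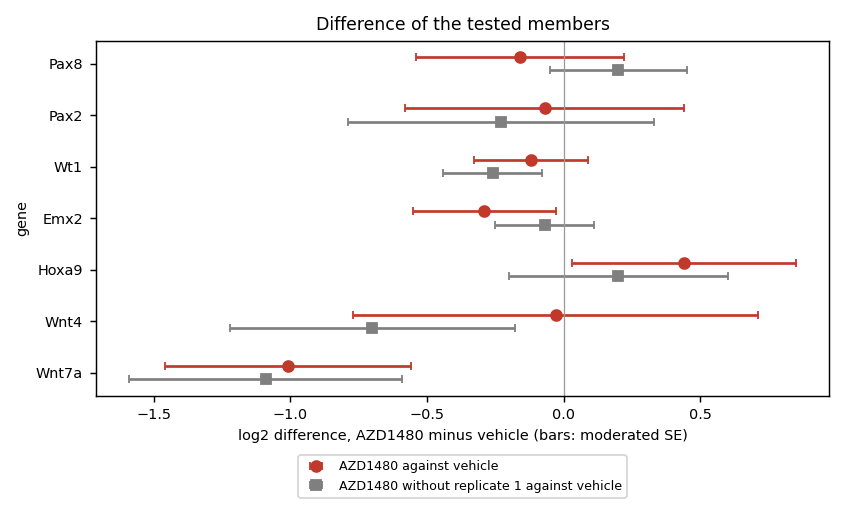
Log2 difference between AZD1480 and vehicle tumours (horizontal axis, bars are limma's moderated SE) of the 7 tested genes, with all 8 arrays (red circles) and without AZD1480 replicate 1 (grey squares). With these processed intensities Wnt7a lies farthest from 0 at -1.01 and -1.09 (-0.12 and -0.03 with normexp), and Pax8 lies at -0.16 and 0.20.

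AZD1480 replicate 1 lay outside the range of the other 7 arrays for 5 of the 7 tested genes, as it did for 52.3% of all genes. Pax8 and Emx2 were below (23.8% of all genes) and Wt1, Hoxa9 and Wnt4 above (28.5%). By at least 1 log2 unit it was below for 0 of 7 members (10.4% of all genes) and above for 0 of 7 (4.34%). Tract genes outside the members differed widely in their shift on that array. The duct and urogenital development list had a median shift of 0.02 against the mean of the other 7 arrays, with Lhx1 at 0.07. Of its 27 tested genes, 10 lay at least 1 unit below all other arrays and 2 above, Osr2 and Aldh1a1. The genes given next, Ovgp1 of the secretory marker list and Pgr, Foxa2 and Esr1 of this list, were among those farthest below the range. Ovgp1, the oviduct glycoprotein of secretory cells, was at -3.52 in AZD1480 replicate 1 and at 5.35 to 6.61 in the other 7 tumours, 764-fold below their mean. Pgr, the progesterone receptor, was not well above background in AZD1480 replicate 1 and at least 69.6-fold below the mean of the others, and Foxa2, a forkhead factor of glandular epithelium, at least 286-fold below. Esr1, the estrogen receptor, was at -2.09, against 1.42 to 2.15 in the other 7.

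Ciliated cell markers of the oviduct went the same way on that array as a list, and part of the secretory markers did. Of 23 tested ciliated cell markers, 21 lay at least 1 unit below all other arrays on AZD1480 replicate 1, where their mean was -3.57, against 0.88 to 1.47 on the other 7. Dnah5 and Capsl were not well above background there, whereas Rsph4a was still measured at -4.48. By treatment 0 of the 23 passed in either comparison, with medians of -1.09 with all arrays and -0.08 without AZD1480 replicate 1. Of 20 secretory and Müllerian epithelium markers 7 lay so, and the list's mean there was -2.39, against -1.19 to 0.71 on the others. Other genes of that list, among them Epcam, Cdh1, Krt8, Krt19, Muc16 and Cldn3, lay inside the range of the other 7 arrays. Muc16 and Cldn3 were above the mean of those arrays, by 1.83 and 1.04 units. By treatment 0 of those 20 passed over all genes. With all arrays 2 were lower at an unadjusted p under 0.05, Lcn2 (-2.16 ± 0.59) and Wfdc2 (-1.31 ± 0.51), secreted proteins of tract epithelium. Without AZD1480 replicate 1 only Lcn2 was (-1.76 ± 0.53), and Wfdc2, at -0.88 ± 0.38, no longer passed that limit. Macrophage and monocyte markers were also low there, 13 of 18 by at least 1 unit. Of the 15 endothelial markers 0 lay so. The part of oviduct cells in the low Pax8 and Emx2 values of AZD1480 replicate 1 was not tested. All 8 samples are labelled as ovarian tumour. The oviduct marker Ovgp1 was well above background in all 8, though at -3.52 in AZD1480 replicate 1, against 5.35 to 6.61 in the other 7.

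**Figure D4:**
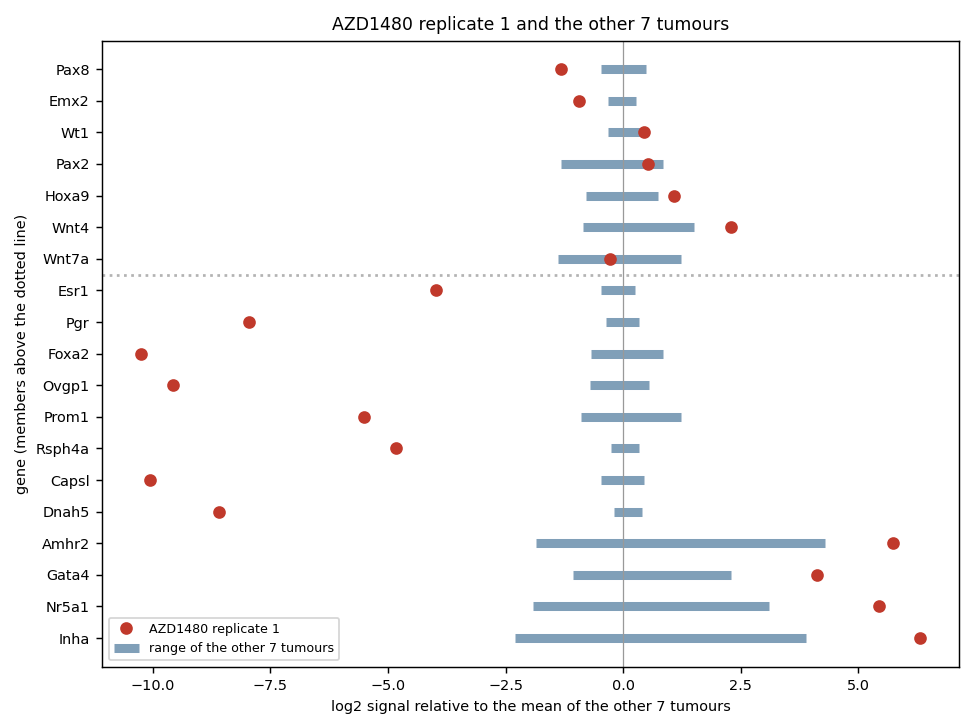
Log2 signal of AZD1480 replicate 1 (red point) and range of the other 7 tumours (blue bar), each relative to the mean of those 7 (horizontal axis, log2 units), for the 7 tested members (above the dotted line) and for tract, cilia and gonadal genes (below it). Pax8 lies at -1.32 and Wnt4 at 2.28, while Ovgp1 lies at -9.58 and Inha at 6.31.

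Other genes of duct and gonad development did not pass in either comparison. Of 27 tested genes of Müllerian duct and urogenital development, 0 passed limma's test over all genes, 1 was lower at an unadjusted p under 0.05 with all arrays and 0 without AZD1480 replicate 1. That one was Dach1, a factor needed with Dach2 for the duct, at -1.47 (limma adjusted p = 0.974) and at -1.19 without the array. On AZD1480 replicate 1, 10 of the 27 lay at least 1 unit below the other arrays and 2 above. Osr2, one of those above, was at -1.25, against -8.83 to -4.03 on the other arrays. Lhx1, which is needed in the duct epithelium, was at -5.38, within -6.11 to -4.61. Of 15 gonadal ridge and coelomic epithelium genes 0 passed over all genes. With all arrays 5 were higher and 10 lower in AZD1480, with a median of -0.13. Without AZD1480 replicate 1 all 15 had a negative difference, with a median of -0.61, while the median of all genes was 0.02. In that comparison 2 of the 15 had an unadjusted p under 0.05. These were Gata6 (-0.68 ± 0.28) and Tcf21, a stromal and gonadal factor that 0 of the 3 AZD1480 arrays and 3 of 4 vehicle arrays measured above background and that was at least 2.84-fold lower (-3.73 ± 1.45 as measured, 1.94-fold as a bound without vehicle replicate 3). With all arrays Gata6 was at -0.34 ± 0.39 and Tcf21 at -2.29 ± 1.79, and 0 of the 15 had an unadjusted p under 0.05. On AZD1480 replicate 1, 4 of the 15 lay at least 1 unit above all other arrays and 2, Fst and Nr2f2, below. Among those above, Gata4 was at 3.58, against -1.60 to 1.75 on the others. Nr0b1, an orphan receptor of the gonad, was at 2.05, against -9.40 to -0.45. Of those below, Nr2f2 was at -0.19, against 0.83 to 1.71.

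In the Wnt pathway list, 35 genes were tested and 0 passed over all genes. With all arrays 0 were higher and 1 lower at an unadjusted p under 0.05, and without AZD1480 replicate 1 it was 2 higher and 3 lower. Dkk2, a secreted Wnt inhibitor, was at -1.39 with all arrays and -1.50 ± 0.42 without AZD1480 replicate 1. It was near background, well above it on 1 of AZD1480 replicates 2, 3 and 4 and on 4 vehicle arrays. Without that array the receptor gene Fzd10 was at -1.26 ± 0.28 (limma adjusted p = 0.721) and Fzd2 at 1.16 ± 0.27 (limma adjusted p = 0.796). With all arrays Fzd10 was at -2.65 ± 1.25 and Fzd2 at -0.03 ± 1.07, neither at an unadjusted p under 0.05, and AZD1480 replicate 1 was the lowest array for both. Fzd10 was not well above background on that array, at -9.66. On AZD1480 replicate 1, 6 of the 35 lay at least 1 unit below all other arrays and 1, Wnt10b, above. Wnt6 and Wnt10b were high there along with Wnt4, at 2.18, against -4.97 to 1.34 on the others, and at -0.71, against -7.16 to -5.03. Other Wnt genes did not share this. Wnt2b was lowest on that array, at -4.74, against -3.54 to -2.18, and Wnt7b and Wnt10a lay inside the range of the others. The Wnt antagonist Sfrp5 was low, at -5.55, against 0.70 to 1.37. Of 12 genes of the AMH receptor pathway 0 passed over all genes or at an unadjusted p under 0.05 in either comparison, with medians of -0.11 with all arrays and -0.23 without AZD1480 replicate 1. On AZD1480 replicate 1, 1 of the 12, Bmpr1b, lay at least 1 unit below all other arrays and 2, Amhr2 and Id3, above. The BMP and AMH target Id3 was at 2.85 there, against -1.89 to 1.62 on the other 7. Its relatives Id1 and Id2 lay inside the range of the other 7, at 1.86 and 1.32.

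The remaining marker lists gave 0 genes passing over all genes in either comparison. The surface epithelium and mesothelium list had a mean of 0.06 in AZD1480 replicate 1 and 1.56 in vehicle replicate 1, both above the -1.44 to -0.23 of the other 6 tumours. Its genes went both ways on AZD1480 replicate 1, where 2 of 14 lay at least 1 unit below all other arrays and 2 above. Lrrn4 was at -2.55, against -0.53 to 1.39, and Aldh1a1 at 6.58, against 2.76 to 4.97. The list's median difference was -0.47 with all arrays. The fibroblast and stroma list had a median of -0.14 and the endothelial list one of -0.07. Of 18 macrophage and monocyte markers, 3 were lower at an unadjusted p under 0.05 in each comparison. Adipocyte markers had a mean of -0.12 in vehicle replicate 3 and -4.45 to -2.74 elsewhere. Smooth muscle markers had a median of 0.32 with all arrays, and without AZD1480 replicate 1, 3 of 9 were higher at an unadjusted p under 0.05, among them Acta2 (1.68 ± 0.45, limma adjusted p = 0.996) and Tagln (1.47 ± 0.43). With all arrays 0 of 9 were, with Acta2 at 0.74 ± 0.91 and Tagln at 0.80 ± 0.71. By sign 7 of the 9 were higher and 2 lower in either comparison. Without AZD1480 replicate 1 the 2 lower ones were Des (-0.86 ± 0.42) and Myocd (-0.91 ± 1.08), and Myh11 was at 0.32 ± 0.50.

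The genes most like each member over the 8 arrays were found by Pearson's r among 15459 genes that carry no clone or model name. They are a description of 8 values, chosen as the highest of many. Pax8 was followed most closely by Olah (r = 0.989), Chd5 and Lyrm7, and Emx2 by Vit (0.982) and Pid1. For Vit and Pid1 AZD1480 replicate 1 lay far below the others, at -2.19, against 0.10 to 1.56, and at -5.20, against -2.17 to -0.68. Wnt4 was followed by Dsg2, a desmosomal cadherin (0.986), Gapvd1 and Mybpc3, a myosin-binding protein gene that was at 2.91 in AZD1480 replicate 1 and -7.28 to -1.20 elsewhere. Wt1 was followed by Isoc1 (0.970) and Nrcam. Hoxa9 was followed by Pogz (0.978), Zfp451 and Zfp397, and Pax2 by Hrh4 (0.982), Cyp2c38 and Olfr767. Wnt7a had the weakest matches, Trim61 (0.930), Esrrb and Naaladl2. Pearson's r leaves out the size of the changes. Gapvd1 spanned 0.43 log2 units and Mybpc3 10.19, against 3.13 for Wnt4, and Pogz spanned 0.60, against 1.87 for Hoxa9. Olah was at -7.69 in AZD1480 replicate 1, below the dimmest probe called well above background there (-7.34).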

How the data were processed

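RNA of 8 tumours was labelled with Cy3, 1 Agilent array per tumour. Scans went through Feature Extraction 9.5.3, per the submitters' processing notes. The deposited intensities, per the file headers, were a raw mean, a local background and a processed intensity with background and spatial trend removed per array, not scaled across arrays. Per the file headers, probe coordinates are on mm9. The authors also deposited a log2 value table, used as an alternative: its columns have the same sorted values (median 8.36) and follow the log2 raw mean intensity of their array (r 0.996 to 1.000 across spots), and its offset is unexplained in the sources used here.

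Log2 processed intensities were scaled to each array's 75th percentile over the non-control spots, replicate spots were averaged without outlier flags, and the brightest kept probe stood for its gene. Of 39429 probes, 26055 were named by RefSeq accession and 8652 by the file, and 28338 were kept. The comparisons used limma 3.58.1, R 4.3.3 (two-sided, Benjamini-Hochberg over 19778 genes, threshold 0.05), and the script was tested on simulated data. Replicates are separate mice per the labels. Slide 1 arrays had a 75th percentile of intensity of 4706 to 5795, slide 2 arrays of 1587 to 2783. The replicate numbers were not used as pairs: deviations from the group means correlated at 0.36, 0.36, 0.13 and -0.06 for replicates 1 to 4. The best vehicle match had the same number for AZD1480 replicates 1 and 2 and another number for 3 and 4. Same-numbered samples also share a slide, so these values cannot tell whether the numbers mark pairs. The members and the 15 other gene lists were chosen with earlier results of these data known. The text names all members, for each tested member the 3 genes with the highest r (some are not reported here), and from each list up to 3 genes with the smallest p per comparison or farthest outside the other 7 arrays on AZD1480 replicate 1. Fshr, Lhcgr, Cyp19a1, Cyp11a1, Amh, Ptgfr, Evx1, Lhx1, Foxl2, Fst, Gja1, Esr1, Inha, Epcam, Krt8, Krt19, Cldn3 and Myh11 are named where a list is described, partly after their values were seen. The same holds for Wnt2b, Wnt7b, Wnt10a, Id1 and Id2. Promoter sequences are from RefSeq. Alternatives were normexp background correction, quantile normalization, median scaling, the value table, other filters on dim probes, the mean of kept probes, slide as a covariate, single slides, the replicate block, array weights and leaving out each replicate. Leaving out each vehicle replicate from the bounds was added after seeing the data.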

Additional observations from a re-analysis of the deposited data

Results flagged for a closer look

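Wnt4 in AZD1480 replicate 1, at -0.61, lay far from the other 3 AZD1480 tumours (-3.51 to -3.15): its gap to the nearest of them was 0.877 of the group's range, above Dixon's critical value for 4 samples. Of the 20 member and group combinations examined, it was the only one past that value, and chance gives about 1 in 20. In the vehicle group the highest Wnt4 value, -1.39 in vehicle replicate 1, had a ratio of 0.383.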

How the results depend on the processing

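Under the alternatives run, 0 of the tested members passed limma's adjusted threshold in either comparison. Hoxa10, Hoxa11 and Lhx9 were tested only with no filter on dim probes and did not pass. The filter on all 8 arrays left Pax8, Wt1, Emx2 and Wnt4. Genes called numbered 0 with all arrays, also when each replicate was left out, and 0 to 1 without AZD1480 replicate 1 as each further replicate was left out. The 1 was Mx1 without vehicle replicate 3 and Tcf21 without vehicle replicate 4; with median scaling the 1 was Mx1 (chosen after their values were seen). No member lay at least 1 unit outside the other arrays on AZD1480 replicate 1 under any scaling or filter run. Median scaling moved the median of all genes on that array from 0.09 to 0.29 above the others, and Emx2 there was at -0.73, while Hoxa9 was at 0.22 with normexp. Differences near 0 changed sign. With all arrays, Pax8 was at 0.11 within slide 2 and 0.06 with array weights, and ranged from -0.40 (without AZD1480 replicate 4) to 0.20 (without AZD1480 replicate 1). Pax2 was at 0.12 with normexp, 0.24 with the mean of probes, 0.18 within slide 2 and 0.01 with array weights, and ranged from -0.34 to 0.38 as each replicate was left out. Wt1 was at 0.03 within slide 1. Wnt4 was at 0.02 with normexp and 0.28 within slide 1, and ranged from -0.70 to 0.37. Without AZD1480 replicate 1, Pax2 was at 0.13 with normexp, 0.22 with the mean of probes, 0.18 within slide 2 and 0.01 with the replicate block, and ranged from -0.72 to 0.36. Emx2 ranged there from -0.22 to 0.08 and Hoxa9 from -0.12 to 0.42. The causes were not tested. Wnt7a was negative under every alternative that tested it, from -1.38 to -0.73 with all arrays and from -1.46 to -0.72 without AZD1480 replicate 1 as each replicate was left out, but at -0.12 and -0.03 with normexp. With all arrays its unadjusted p fell under 0.05 with quantile normalization, median scaling, the value table, slide 1 alone and without vehicle replicate 4. With slide as a covariate 1 of the 7 members had an unadjusted p under 0.05. Without AZD1480 replicate 1, 1 of 7 had so with each of quantile normalization, median scaling and the value table, and 2 of 7 without vehicle replicate 4. Genes at an unadjusted p under 0.05, 685 with all arrays and 859 without AZD1480 replicate 1, numbered 1072 with array weights in the first comparison, and 451 to 1621 and 631 to 1947 as each replicate was left out, with the most without AZD1480 replicate 3. The replicate block changed no call (0 genes called in both comparisons, Wnt7a at -1.01 and -1.10). Signal near background limits Pax2, Hoxa9, Hoxa10, Hoxa11, Lhx9 and Wnt7a.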
